A study of Mus musculus with 105 samples.

Results

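The Dlk1-Dio3 locus on mouse chromosome 12 carries one of the largest groups of miRNA genes known in mammals, and its mature miRNAs were followed here through metabolic labelling of cultured cells. The members were the listed miRNAs of that locus, taken by name from every small-RNA table. Of 49 listed names 48 were present, out of 1013 mature miRNAs counted. The remaining name, miR-496a-3p, occurs only as 2 numbered sub-rows, which were counted among 64 other mature miRNAs of the locus. The members come from 37 hairpins on the plus strand of chromosome 12 (GRCm38), in 2 blocks. The first block runs from Mir493 to Mir370 (chr12:109580233-109618336) and holds 11 hairpins and 14 members. The second runs from Mir379 to Mir410 (chr12:109709060-109743795) and holds 26 hairpins and 34 members.

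Dlk1-Dio3 is an imprinted domain. The protein-coding genes Dlk1, Rtl1 and Dio3 are expressed from the chromosome inherited from the father, whereas the long noncoding RNAs Meg3, Rian and Mirg and the miRNAs are expressed from the one inherited from the mother. Many of these miRNAs are cut from introns of long host transcripts, so that a single domain of transcription can feed a whole row of hairpins. They are best known from embryo, placenta, brain and muscle, and miR-127, miR-136, miR-431, miR-433 and miR-434 lie antisense to the Rtl1 coding sequence, whose mRNA they can cleave.

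The cells were contact-inhibited mouse embryonic fibroblasts (CIMEF), held at confluence for 5 days before treatment, dividing mouse embryonic fibroblasts (DMEF) and embryonic stem cells (ESC) of the line v6.5, grown with LIF and 2 kinase inhibitors. The labels give the strain as C57BL/6J for all fibroblasts, the knockout included, and C57BL/6 for ESC, with 5-15 passages throughout. A further contact-inhibited fibroblast culture lacked Cyrano, a long noncoding RNA known for directing decay of miR-7, and the deletion itself was not checked here because no mRNA library of it was analysed. All cells received 5-ethynyluridine (5EU), a uridine analogue that enters new RNA and allows it to be pulled down, at 400 µM for fibroblasts and 125 µM for ESC. EU libraries hold the small RNA that was pulled down, and input libraries the total small RNA that went into the pulldown. Each wild-type line had 2 time courses and the knockout 1, which makes 7. The labelling times of CIMEF were 1, 2, 4, 8, 24, 72 and 168 h (1 week), those of the knockout the same from 2 h, those of DMEF the same up to 72 h and those of ESC 1, 2, 4, 8, 16 and 24 h, and course 1 of each wild-type line also had a 0 h pair. Nothing in the labels ties the 2 courses of a line to separate animals or cultures, so the p-values measure the spread between these libraries.

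The mature sequences that carry the results are printed 5′ to 3′, in RNA letters, as RefSeq gives them for GRCm38. Capitals mark the seed, bases 2 to 8, which is the main determinant of target pairing, and the species prefix mmu- is left off in the rest of the text. The first 5 are shown because of their level, or because they separate ESC from fibroblasts.
mmu-miR-127-3p: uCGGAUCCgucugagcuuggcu
mmu-miR-136-5p: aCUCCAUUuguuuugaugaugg
mmu-miR-379-5p: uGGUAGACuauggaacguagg
mmu-miR-758-3p: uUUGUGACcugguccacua
mmu-miR-323-3p: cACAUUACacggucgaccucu
The next 7 are shown because their labelled share departed most from their standing share, or because the labelling differed between lines.
mmu-miR-154-5p: uAGGUUAUccguguugccuucg
mmu-miR-154-3p: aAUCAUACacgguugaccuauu
mmu-miR-376b-3p: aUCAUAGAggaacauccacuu
mmu-miR-376a-3p: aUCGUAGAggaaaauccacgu
mmu-miR-495-3p: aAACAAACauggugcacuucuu
mmu-miR-543-3p: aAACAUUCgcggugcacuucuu
mmu-miR-433-3p: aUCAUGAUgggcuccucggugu
The last 2 hold the one seed that 2 members share.
mmu-miR-379-3p: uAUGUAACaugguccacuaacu
mmu-miR-411-3p: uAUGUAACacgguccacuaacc

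miR-127-3p lies at chr12:109592888-109592909 and miR-136-5p at chr12:109595331-109595352, both in the first block and inside the Rtl1 gene on the opposite strand. miR-433-3p lies in the same stretch, at chr12:109591781-109591802. In the second block, miR-379-5p opens the row at chr12:109709065-109709085, miR-323-3p and miR-758-3p follow at chr12:109712558-109712578 and chr12:109712858-109712876, and miR-376b-3p and miR-376a-3p at chr12:109723508-109723528 and chr12:109723824-109723844. The arms of Mir154 lie near the end of the row, at chr12:109738438-109738459 for miR-154-5p and chr12:109738474-109738495 for miR-154-3p. RefSeq held a mature sequence for 44 of the 48 members. Despite their common position, these 44 had 43 different seeds, and the single shared one was AUGUAAC of miR-379-3p and miR-411-3p. Those 2 sequences differ at 2 positions. Pairs that differ at 3 were miR-376a-3p and miR-376b-3p, miR-300-3p and miR-381-3p, and miR-379-3p and miR-758-3p. Pairs that differ at 4 were miR-154-3p and miR-369-3p, miR-411-3p and miR-758-3p, and miR-495-3p and miR-543-3p. How reads were divided between such close pairs is not recorded, so their separate counts are uncertain to that extent.

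Input libraries held 912688 to 9117300 miRNA counts and EU libraries 1196 to 2463188, the lowest being the 0 h pulldown of ESC. Levels are given as CPM, counts per 1e+06 miRNA counts. Library CPM refers to the total of a single library, and scaled CPM to the counts of a whole course, summed over its input libraries and divided by the TMM-scaled total. Intervals on counts cover counting error only. In these bulk samples, fewer cells with a miRNA and less miRNA per cell cannot be told apart.

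The share of the cluster differed between time courses, most of all between the contact-inhibited ones. In ESC, the 48 members made up 5.68% to 6.31% of all miRNA counts in the 7 input libraries of course 1 (median 6.01%) and 5.27% to 5.92% in the 6 of course 2 (median 5.62%). In DMEF the share was 0.652% to 0.802% in course 1 (median 0.769%) and 0.449% to 0.583% in course 2 (median 0.539%). CIMEF course 1 held 1.17% to 1.38% (median 1.27%), between DMEF and ESC. CIMEF course 2 held 0.00653% to 0.0133% (median 0.0112%), and the Cyrano knockout 0.0305% to 0.0430% (median 0.0403%). No library of one course overlapped with a library of any other in this share except between the 2 ESC courses. The plot of the summed share by time shows these levels and the gap between the 2 CIMEF courses.

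**Figure D1:**
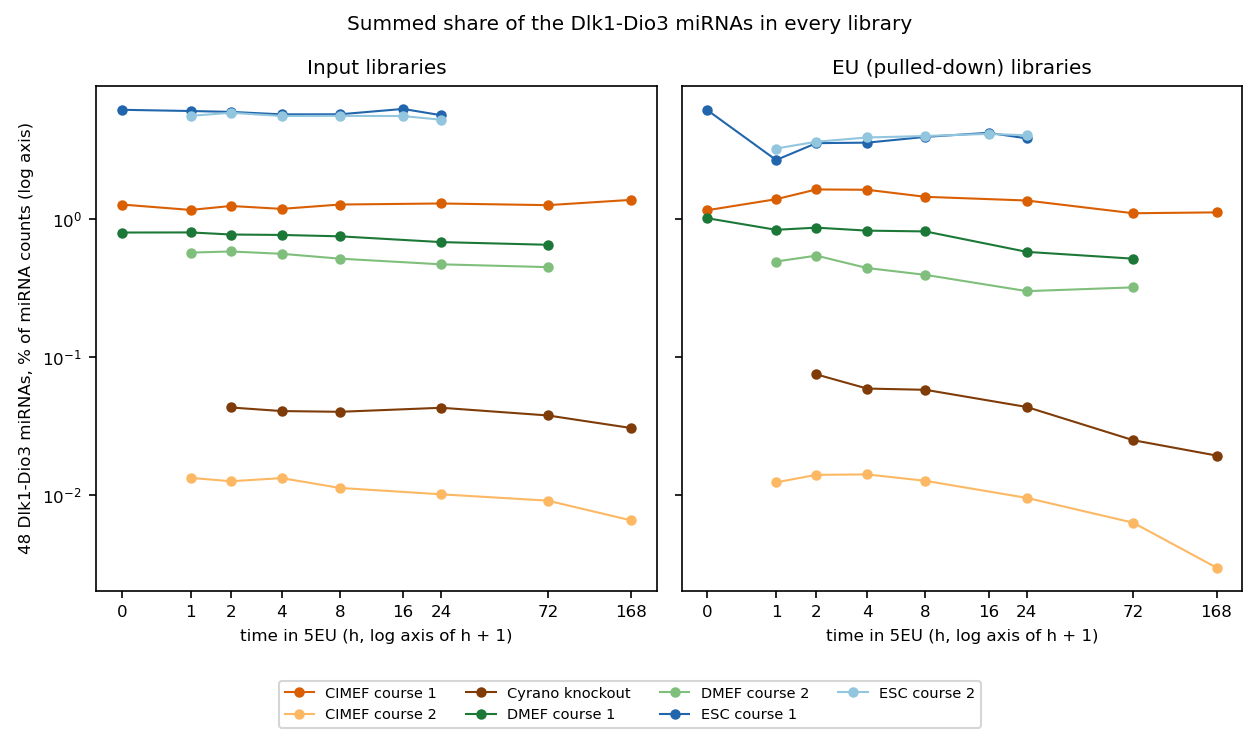
Each point is 1 library, with the share of the 48 members among its miRNA counts in percent (log axis) against the time in 5EU in hours (log axis of h + 1), input libraries and EU libraries in separate panels and 1 colour per time course. The ESC input libraries lie between 5.27% and 6.31%, those of CIMEF course 1 between 1.17% and 1.38% and those of CIMEF course 2 between 0.00653% and 0.0133%.

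Of the 3 wild-type lines, CIMEF had the widest gap between its courses. The 7 input libraries of course 2 held 3152 counts of members, against 575599 in the 8 input libraries of course 1. On scaled totals the sum was 134 CPM in course 2 and 15371 CPM in course 1, a 114.8-fold gap. miR-127-3p, the most abundant member, ranged from 1578 to 2179 library CPM in course 1 (median 1768) and from 7.03 to 19.6 in course 2 (median 16.0). miR-136-5p ranged from 1131 to 2192 library CPM in course 1 and from 5.20 to 8.96 in course 2. miR-379-5p ranged from 679 to 849 in course 1 and from 4.18 to 9.12 in course 2. For each of these 3 the lowest library of course 1 lay far above the highest of course 2.

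All 48 members were lower in CIMEF course 2 than in course 1 by edgeR's quasi-likelihood test on the input libraries of the 7 shared times (Benjamini-Hochberg adjusted p below 0.05, over all 535 miRNAs tested). The time points stand in for replicates, so this test compares 2 time courses and not 2 conditions. Between these courses 41.5% of all tested miRNAs were called lower and 37.9% higher, so a call alone says little here. Members with few counts in course 2, miR-539-3p (0) and miR-758-3p (1) among them, could pass the expression filter only through course 1, where they are high. For such members the filter largely set the direction of the call. The size of the difference is what sets the members apart in description. Their median log2 difference was -7.09, with a range of -8.78 to -5.85, while the median of all tested miRNAs was 0.0030. The best-supported members were miR-379-5p (log2 -7.06, SE 0.10, adjusted p = 9.7e-16), miR-381-3p (-7.28), miR-136-5p (-8.11), miR-431-5p (-8.21), miR-382-5p (-7.51) and miR-300-3p (-7.05). Of the 50 miRNAs with the lowest log2 values, 36 were members, 13 were other miRNAs of the locus, and 1, miR-615-3p (log2 -6.91), came from elsewhere.

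**Figure D2:**
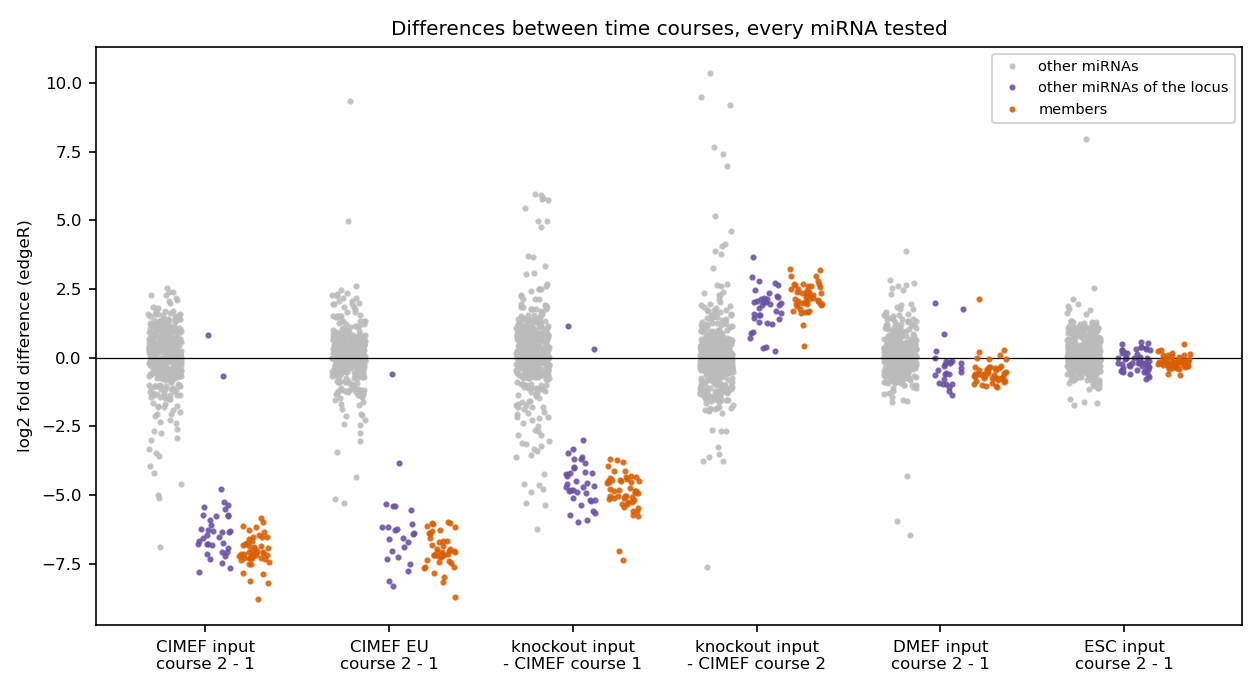
Each point is 1 miRNA tested, with its log2 fold difference between 2 time courses (edgeR) on the vertical axis and the comparison on the horizontal axis, members marked apart from other miRNAs of the locus and from the rest. The members sit between -8.78 and -5.85 for CIMEF course 2 minus course 1, far from the median of all miRNAs at 0.0030, whereas in DMEF and ESC their medians are -0.61 and -0.17.

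The fold by member, over the 44 members with more than 3 counts in course 2, ran from 44.8 for miR-369-3p to 244 for miR-431-5p, with a median of 110. Of the other 4, miR-539-3p had 474 counts in course 1 and 0 in course 2, which makes it at least 99.3-fold lower against a floor of 3 counts over the course. miR-758-3p had 177 and 1 counts, a ratio of 111 (95% exact interval 19.7 to 4420). miR-485-5p had 520 and 2, a ratio of 163 (45.0 to 1353), and miR-323-3p 307 and 2, a ratio of 96.5 (26.5 to 800). These 4 are the members with the smallest counts in course 2. The 3 intervals include the median fold of the others, and the bound for miR-539-3p lies below it.

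The relative levels of the members were much alike in both courses. Over the 48 members, log2 scaled CPM of CIMEF course 1 and course 2 correlated with r = 0.960, a description across miRNAs that share libraries and a common locus. In both courses miR-127-3p was highest, at 2228 and 17.5 scaled CPM. The first block held 41.5% of the members' scaled CPM in CIMEF course 1 and 31.7% in course 2, against 28.9% to 34.8% in the other 5 courses. Between any 2 of the 5 fibroblast courses r was 0.917 to 0.965, and between a fibroblast and an ESC course 0.680 to 0.830. In the plot of levels along the locus, some members that lay low in fibroblasts lay much higher in ESC: miR-758-3p stood at 4.73 scaled CPM in CIMEF course 1 and 650 in ESC course 1, miR-323-3p at 8.20 and 503, and miR-154-3p at 129 and 2178.

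**Figure D3:**
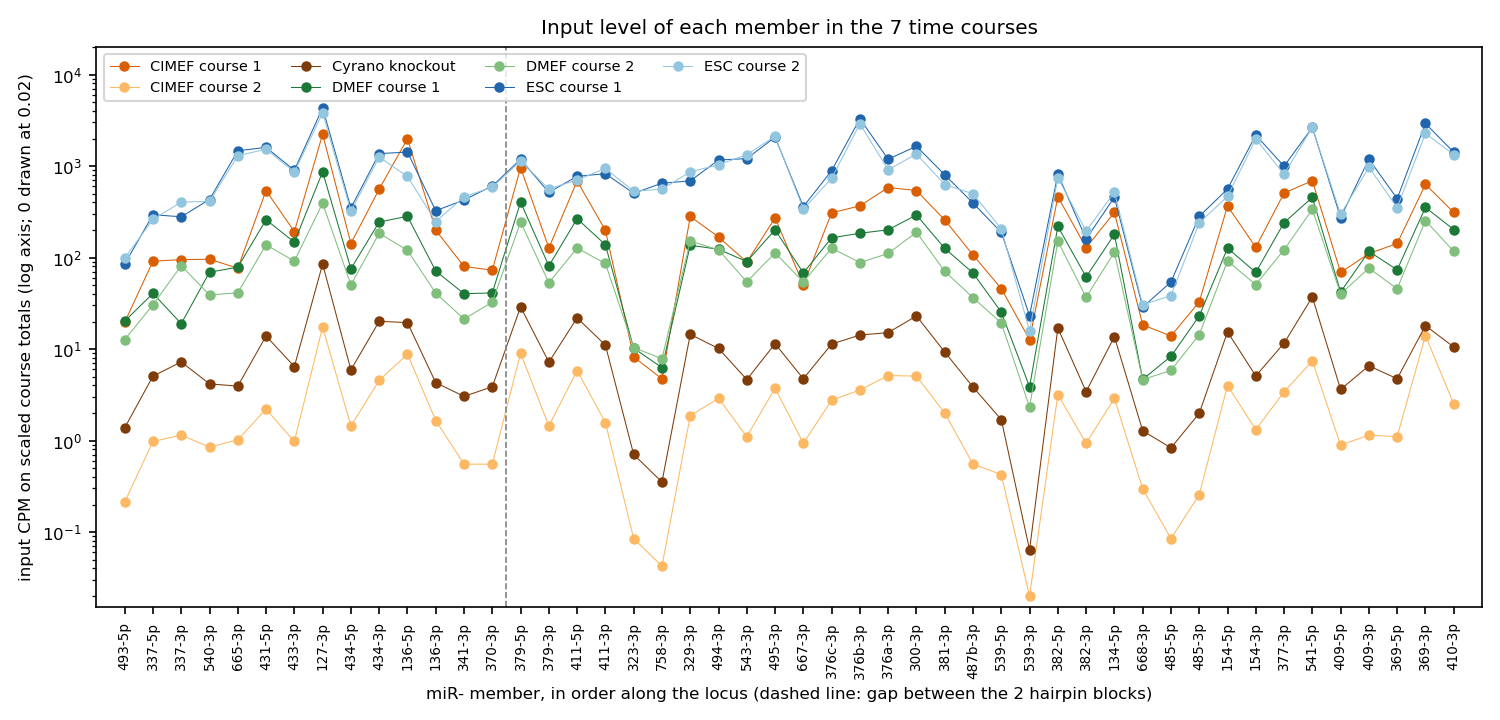
Input level of each of the 48 members (CPM on scaled course totals, log axis, 0 drawn at 0.02) in their order along the locus, with 1 line per time course and a dashed line at the gap between the 2 hairpin blocks. The ESC lines run highest for nearly every member, CIMEF course 1 and the DMEF courses lie below them, and the knockout and CIMEF course 2 lie lowest.

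Labelled RNA of CIMEF course 2 also held less of the members. In the EU libraries the members made up 1.10% to 1.64% of miRNA counts in CIMEF course 1 and 0.00296% to 0.0141% in course 2, where a library held 17 to 153 member counts. Of 42 members that passed the expression filter in EU libraries, 42 were lower in course 2, where 35.9% of all 426 miRNAs tested were called lower and 30% higher. With so few counts in course 2, most members could pass the filter only through course 1, where they are high. The direction of these calls was thus largely set by the filter, and their count adds no support of its own. Their median log2 difference was -7.07, and that of the 48 members tested in input was -7.09. Whether the gap differed between labelled and standing RNA was not tested. miR-376b-3p had -7.19 (SE 0.18, adjusted p = 4.25e-20), miR-154-5p -7.84, miR-136-5p -8.15, miR-127-3p -7.65, miR-379-5p -7.05 and miR-154-3p -6.71.

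The host transcripts and the rest of the locus were measured too. Each wild-type line had 2 poly(A) mRNA libraries, numbered 1 and 2, and nothing in the labels ties these numbers to the time courses. Meg3 stood at 171 CPM in CIMEF mRNA library 1 and 2.69 in library 2, a 63.6-fold gap. Rian stood at 110 and 2.69 CPM (40.8-fold) and Mirg, which overlaps the end of the second block, at 9.01 and 0.261 CPM (34.6-fold, on 6 counts in library 2). Dlk1, the coding gene at one end of the domain, had 217 and 15.5 CPM (14.0-fold), whereas Dio3, at the other end, had 7.44 and 9.21 CPM. Rtl1 had at most 8 counts in any library. These values compare single libraries and have no replicate check. In the 2 libraries of DMEF, Meg3 had 20.6 and 16.6 CPM and Rian 43.1 and 35.3, and in ESC Meg3 had 60.2 and 66.6 and Rian 142 and 150. Among the other miRNAs of the locus, 35 of 37 tested were lower in CIMEF course 2 (median log2 -6.34) and 1 was higher. That one was miR-1247-5p, at +0.82 (adjusted p = 2.27e-06), from a hairpin whose other arm, miR-1247-3p, had -0.67 (adjusted p = 0.128). Both were picked out after their values were seen.

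Markers of other cell types, fixed as lists, were read beside this gap. The summed scaled CPM of 4 mesenchymal miRNAs (miR-21a-5p, miR-143-3p, miR-145a-5p and miR-214-3p) was 284609 in CIMEF course 1, 168872 in course 2, 146728 in the knockout and 237701 and 208083 in DMEF, and 4 of 4 were lower in CIMEF course 2 (median log2 -0.92). Pluripotency miRNAs summed to 1.20 and 0.722 CPM in the CIMEF courses, against 343282 and 352971 in ESC, so each line carried its defining markers. Neural miRNAs summed to 469 CPM in CIMEF course 1 and 1359 in course 2, with 3 of 6 higher and 1 lower. Hematopoietic miRNAs were at 19.7 and 44.0 CPM (1 of 4 higher, 2 lower), muscle miRNAs at 82.8 and 169 CPM (1 of 4 higher, 3 lower) and endothelial or liver miRNAs at 260 and 140 (1 of 4 higher, 3 lower). Epithelial miRNAs summed to 10.8 and 6.41 CPM, with 2 of 2 tested lower. Their part in the result was not tested.

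The Cyrano knockout culture lay between the 2 wild-type CIMEF courses, much closer to the lower one. Its members summed to 529 scaled CPM, 3.95-fold above CIMEF course 2 and 29.1-fold below course 1. miR-127-3p ranged from 55.3 to 72.7 library CPM in the knockout (median 62.2), above every library of CIMEF course 2 and below every library of course 1. miR-136-5p ranged from 9.74 to 20.5 and miR-379-5p from 18.0 to 24.6, again without overlap with either course.

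Against CIMEF course 1, all 48 members were lower in the knockout, where 39.1% of 550 tested miRNAs were called lower and 37.1% higher, with a median log2 difference of -4.86. Members with few counts in the knockout and in course 2 could pass the expression filter only through course 1. For these too the filter largely set the direction of the call. miR-136-5p was lowest among the best-supported members (log2 -7.05, SE 0.15, adjusted p = 6.33e-17), followed by miR-379-5p (-5.32), miR-376b-3p (-5.11), miR-381-3p (-5.07), miR-495-3p (-4.92) and miR-300-3p (-4.87). Against CIMEF course 2, 47 of 48 members were higher, where 43.5% of all were called higher and 27.3% lower, with a median of 2.26. miR-431-5p was higher by 2.67 (SE 0.20, adjusted p = 3.54e-09), miR-541-5p by 2.35, miR-382-5p by 2.35, miR-381-3p by 2.28, miR-300-3p by 2.19 and miR-379-5p by 1.71. Both comparisons use 1 fit and the same knockout libraries. The direction turned with the wild-type course chosen, and the knockout is 1 course. Genotype and time course thus cannot be told apart for these miRNAs.

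The gaps between the courses of the other lines were small beside that of CIMEF. In DMEF, 40 of 47 members tested were lower in course 2 and 1 was higher, where 33.9% of 469 tested miRNAs were called lower and 30.5% higher. The members' median was -0.61, against -0.037 over all miRNAs. miR-127-3p was lower, log2 -1.06 (SE 0.078, adjusted p = 2.62e-08), from 842 to 953 library CPM in course 1 to 377 to 521 in course 2, and miR-411-5p (-1.04), miR-376b-3p (-1.01), miR-377-3p (-0.90), miR-431-5p (-0.84) and miR-495-3p (-0.82) were lower likewise. The one member that was higher was miR-337-3p, by 2.14 (SE 0.15, adjusted p = 1.33e-08). It stood at 14.1 to 23.3 library CPM in DMEF course 1 and 59.1 to 126 in course 2, so that the 2 sets of libraries did not overlap.

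In ESC, 16 of 48 members were lower in course 2 and 3 were higher, where 18.2% of 592 tested miRNAs were called lower and 22.1% higher. The median was -0.17. miR-485-5p and miR-136-5p had the lowest values named, each -0.61 (adjusted p = 1.23e-03 and 5.53e-03), followed by miR-369-5p (-0.41), miR-409-3p (-0.40), miR-381-3p (-0.34) and miR-154-5p (-0.32). miR-337-3p was again higher, by 0.51 (SE 0.11, adjusted p = 3.34e-03), with miR-487b-3p (0.27) and miR-382-3p (0.24). ESC course 2 was processed with fewer named tools than course 1, per the submitters' processing notes, and the part of that in these differences was not tested.

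Between lines, ESC stood above both fibroblast lines for every member in the fitted values, yet few members passed the test. Here the course is the replicate, with 2 a line, and the spread between the CIMEF courses enters the shared error. The members summed to 46633 and 42565 scaled CPM in the ESC courses and to 7014 and 4402 in DMEF. miR-758-3p was at 737 to 909 library CPM in ESC course 1 and 677 to 782 in course 2, against 5.47 to 11.4 and 6.21 to 12 in the DMEF courses. miR-323-3p was at 529 to 825 and 663 to 751 in ESC, against 6.41 to 13.1 and 7.76 to 18.1 in DMEF. Neither overlapped between the lines in any library. Sums of marker lists differed between the lines too. Hematopoietic miRNAs summed to 15697 and 10962 scaled CPM in ESC against 19.6 and 211 in DMEF. Neural miRNAs summed to 4811 and 4565 against 530 and 823, and epithelial miRNAs to 3031 and 2616 against 4.6 and 4.85. Not every marker of a list moved that way. In ESC, miR-223-3p was at 0.0446 and 0 against 0.675 and 3.20 in DMEF, and miR-9-5p at 70.9 and 108 against 233 and 424. In ESC the hematopoietic sum rested mostly on miR-142a and miR-150-5p, and the neural sum on miR-124-3p. Mesenchymal miRNAs summed to 2972 and 3275 in ESC. The part of these markers in the difference was not tested.

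These 2 were the members that passed for ESC minus DMEF, where 22.8% of 812 tested miRNAs were called higher and 25% lower. miR-758-3p was higher by 6.42 (SE 1.86, adjusted p = 0.0334) and miR-323-3p by 5.65 (SE 1.82, adjusted p = 0.0474). The fitted log2 was positive for all 48, with a median of 2.78 against 0.52 over all miRNAs. When only the DMEF and ESC courses entered the fit, 48 of 48 passed as higher, where 40.8% of 732 tested miRNAs did and 33.1% passed as lower. The same count of 48 passed when either CIMEF course was left out of the shared fit (41.7% of all called higher and 30.8% lower without course 1, 41.9% and 30.9% without course 2), alternatives added after seeing the data. When an ESC or a DMEF course was left out, which leaves that line with 1 course whose spread is assumed to be like that of the others, 0 members passed in edgeR, where 13.2% to 15.8% of all miRNAs were called higher.

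The ratio of the ESC mean to the DMEF mean differed widely among members. It ranged from 3.32 for miR-134-5p, a miRNA studied for its role in dendritic spines, to 85.7 for miR-758-3p, with a median of 6.86. miR-323-3p (50.2), miR-154-3p (34.8), miR-665-3p (23.1) and miR-376b-3p (22.7) were also high. miR-154-3p stood at 2178 and 1976 scaled CPM in ESC and at 68.8 and 50.5 in DMEF, and miR-376b-3p at 3282 and 2892 against 184 and 88.2. miR-541-5p differed less, at 2640 and 2654 against 454 and 336.

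For ESC minus CIMEF, miR-758-3p (log2 7.97, SE 1.99, adjusted p = 0.0169) and miR-323-3p (6.96, SE 1.93, adjusted p = 0.0246) passed, where 27.3% of all miRNAs were called higher and 29.2% lower. The median of the 48 was 2.88. This median averages over CIMEF courses that differed 114.8-fold, and the calls follow it. Without CIMEF course 1 all 48 passed (37.5% of all called higher, 33.6% lower) and without CIMEF course 2 34 (39.3% and 29.8%). With only the CIMEF and ESC courses in the fit (23.4% of all called higher, 32.9% lower), 0 passed in edgeR. With 1 ESC course left out, which leaves that line a single course, the members' median log2 was 2.87 (without course 1) and 2.90 (without course 2). In scaled CPM, miR-136-5p was higher in CIMEF course 1 (1990) than in the ESC courses (1422 and 770), and miR-127-3p lower (2228 against 4317 and 3807).

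For CIMEF minus DMEF no member and no other miRNA passed in edgeR, 0% of 812 in either direction, and the lowest adjusted p of a member was 0.602. At an unadjusted p below 0.05 there were 0 members and 158 miRNAs in all. DESeq2 called 0 members too, but 69 of the 812 miRNAs as higher and 41 as lower. The summed level in DMEF, 7014 and 4402 scaled CPM, lay between those of the CIMEF courses, 15371 and 134. With 1 CIMEF course left out, CIMEF is a single course and the spread in the test comes from the other lines alone. Without course 1, 48 members were called lower than in DMEF (15.2% of all miRNAs called lower, 10.6% higher), and without course 2, 2 members were called higher (4.76% of all called higher, 1.38% lower).

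The standing level was followed over the time in 5EU. From the first to the last labelled time, the members' share of input counts went from 1.17% to 1.38% in CIMEF course 1 and from 0.0133% to 0.00653% in course 2. It went from 0.0430% to 0.0305% in the knockout, from 0.802% to 0.652% in DMEF course 1 and from 0.573% to 0.449% in course 2, and from 6.10% to 5.68% and 5.63% to 5.27% in ESC. The share at the last time was thus 1.18 of the first in CIMEF course 1 and 0.491 of it in course 2, and 0.710 to 0.936 in the others.

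Few single members had a slope that passed. Slopes are log2 changes per unit of log2(hours + 1), with course as a factor. In CIMEF, miR-370-3p fell (slope -0.15, SE 0.032, adjusted p = 4.98e-04) and miR-665-3p fell (-0.14), while miR-485-3p (0.11), miR-337-3p (0.11) and miR-376b-3p (0.084) rose, where 9.90% of 687 tested miRNAs were called rising and 7.57% falling. The 3 rises rested on CIMEF course 1: without it their slopes were -0.0071, -0.038 and -0.058. In CIMEF course 1, miR-370-3p went from 77.3 library CPM at 1 h to 32.1 at 72 h and 35.5 at 168 h, and in course 2 from 0.253 to 0.217 and 0.

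In DMEF 3 members fell and none rose, where 2.62% of all were called falling and 4.37% rising. miR-376a-3p, one of the miRNAs known for editing of its precursor, had the slope -0.21 (SE 0.042, adjusted p = 1.22e-03). Its library CPM went from 387 at 0 h and 242 at 1 h to 121 at 72 h in course 1, and from 204 at 1 h to 62.3 at 24 h and 93.3 at 72 h in course 2. miR-136-5p fell with a slope of -0.18 (adjusted p = 0.0131), from 653 at 0 h and 271 at 1 h to 189 at 72 h in course 1 and from 179 to 121 in course 2. miR-539-3p, a low member, fell with a slope of -0.27 (adjusted p = 0.0469). None of the 3 passed in edgeR when either DMEF course was left out. Few of all miRNAs did so either, 3 rising and 1 falling of 683 without course 1, and 13 and 3 of 700 without course 2. Without the 0 h libraries 1 member passed, where 18 of 687 miRNAs were called rising and 12 falling. In ESC no member passed in edgeR, where 4.08% of all were called rising and 0.291% falling. The lowest adjusted p was 0.285, with 3 members at an unadjusted p below 0.05 and 1 called with DESeq2 size factors.

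The 3 members that fell in DMEF had slopes that differed between CIMEF and DMEF, where 1.60% of miRNAs were called higher and 2.04% lower. The difference was 0.24 for miR-136-5p (SE 0.063, adjusted p = 0.0171), 0.20 for miR-376a-3p (SE 0.054, adjusted p = 0.0185) and 0.34 for miR-539-3p (SE 0.10, adjusted p = 0.0464). For ESC minus CIMEF, miR-370-3p differed by 0.19 (SE 0.050, adjusted p = 0.0128), where 3.35% were called higher and 1.46% lower. No member differed for ESC minus DMEF, where 0.728% of miRNAs were called higher and 0% lower. The 2 CIMEF courses also differed in slope for miR-127-3p, by -0.20 (SE 0.041, adjusted p = 0.0175), where 0.374% of miRNAs were called lower and 0.561% higher. Its library CPM went from 1889 at 1 h to 2179 at 168 h in course 1 and from 16.4 to 7.03 in course 2. Of the 48 members 42 had a negative difference of that kind, with a median of -0.15 against -0.0030 over all miRNAs. That comparison was added after seeing the data.

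A miRNA that turns over quickly takes a larger share of labelled RNA soon after 5EU is added than of standing RNA. This share was compared at 1, 2 and 4 h, EU against input library of the same cells, and the unlabelled 0 h pulldown was not taken off. Per 1000 counts of the synthetic sequencing standards, the members had 1.04 counts at 0 h and 3.04 at 1 h in CIMEF course 1. The values were 0.257 and 4.65 in DMEF course 1, and 77.0 and 363 in ESC course 1. The part of these unlabelled counts in the results, and in differences between lines, was not tested. In CIMEF 7 members were higher in labelled RNA and 19 lower of 48 tested, where 29.4% of 517 miRNAs were called higher and 38.1% lower. In DMEF 6 were higher and 22 lower of 45, where 29.7% of 454 were called higher and 36.3% lower. In ESC 0 were higher and 29 lower of 48, where 19.2% of 522 were called higher and 25.3% lower. The members' median log2 was -0.80, -0.52 and -0.94 in that order, against -0.33, -0.14 and -0.23 over all miRNAs. Without CIMEF course 1, 16 members could be tested, of which 1 was called higher and 2 lower (29.4% of 432 miRNAs higher, 31.5% lower), and without course 2, 8 of 48 were higher and 16 lower (25.9% and 31.5%). In DMEF 4 were higher and 13 lower of 43 without course 1 (26.6% and 25.2% of all) and 3 and 14 of 46 without course 2 (25.7% and 29.3%). In ESC 18 of 48 were lower without either course (18.5% of all called lower and 15.6% higher without course 1, 12.5% and 10.1% without course 2).

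The member furthest toward labelled RNA was miR-154-3p in both fibroblast lines. In CIMEF course 1 it stood at 1654, 1965 and 1673 library CPM in the EU libraries of 1, 2 and 4 h and at 93.7, 103 and 113 in the input libraries. In DMEF course 1 it stood at 993, 728 and 609 in EU and at 81.8, 91.4 and 78.3 in input. In ESC course 1 it stood at 2398, 2721 and 3082 in EU and at 3017, 2740 and 2869 in input. EU and input libraries were thus far apart in fibroblasts and overlapped in ESC.

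Summed over these times, the EU share of miR-154-3p was 17 and 14.9 times its input share in CIMEF courses 1 and 2, 8.81 and 6.28 in DMEF, 19.0 in the knockout (2 and 4 h), and 0.976 and 1.02 in ESC. The fitted log2 was 3.26 in CIMEF (SE 0.30, adjusted p = 3.29e-10), 2.64 in DMEF (SE 0.19, adjusted p = 5.89e-06) and -0.053 in ESC (adjusted p = 0.856). Both CIMEF courses thus gave a ratio of similar size at levels of 129 and 1.32 scaled CPM in the input.

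The other members called higher in both fibroblast lines were miR-154-5p (log2 0.85 in CIMEF and 0.79 in DMEF), miR-376b-3p (1.36 and 1.33), miR-495-3p (0.81 and 0.65) and miR-543-3p (1.54 and 0.74). In ESC, miR-376b-3p (-1.40), miR-495-3p (-0.64) and miR-543-3p (-0.91) were called lower, and miR-154-5p had 0.51 (adjusted p = 0.0727). The ratio of EU to input share of miR-376b-3p was 5.73, 2.77, 3.44 and 2.85 in the 4 fibroblast courses of CIMEF and DMEF, 8.26 in the knockout, and 0.374 and 0.592 in ESC. CIMEF also had miR-409-5p higher (1.27) and miR-665-3p (1.07), and DMEF miR-434-5p (0.70).

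At the other end, 17 of the 45 members tested in all 3 lines were called lower in labelled RNA in each of them, as were 20.3% of the 390 miRNAs tested in all 3 (14.4% were called higher in all 3). Among these members were the abundant miR-127-3p, miR-379-5p, miR-410-3p, miR-431-5p and miR-434-3p. miR-433-3p had -4.02 in CIMEF (SE 0.49, adjusted p = 5.59e-08), -3.49 in DMEF and -1.36 in ESC. miR-667-3p had -3.98, -4.51 and -2.34, and miR-494-3p -2.0, -1.89 and -2.30. Label enters at uridines, of which miR-667-3p has 2 and miR-494-3p 3, against a median of 6 over members. The part of this in their low labelled share was not tested. In DMEF course 1, miR-433-3p stood at 21.6, 28.2 and 19.2 library CPM in EU and at 186, 162 and 167 in input. miR-127-3p had -1.87, -1.38 and -1.13. miR-376a-3p, 3 bases away from miR-376b-3p, had -0.98, -1.48 and -1.96, so that these near-identical members lay on opposite sides of 0 in fibroblasts and on the same side in ESC. In ESC, miR-410-3p (-1.80) and miR-431-5p (-1.66) were among the best-supported calls.

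**Figure D4:**
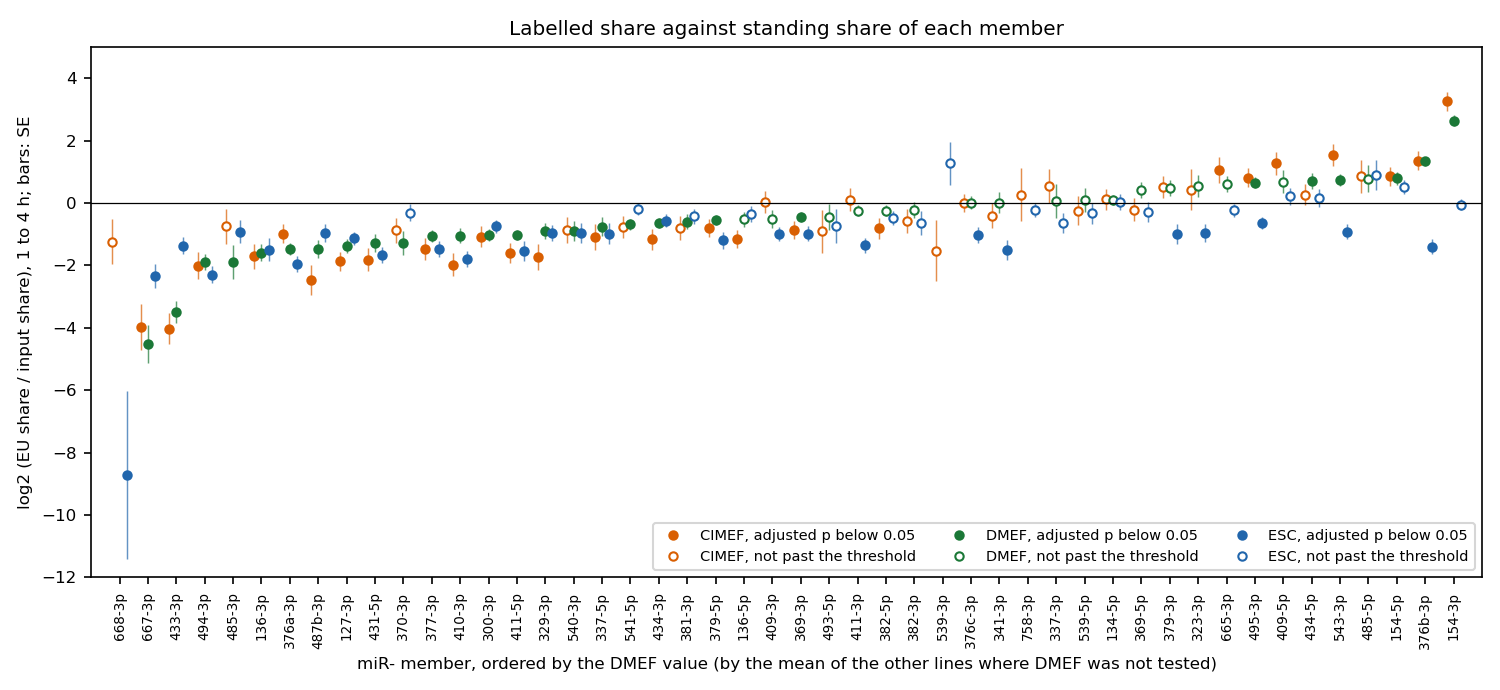
Log2 of EU share over input share at 1, 2 and 4 h (edgeR, vertical axis, bars are SE) for each member on the horizontal axis, ordered by the DMEF value, with 1 colour per line and filled points for an adjusted p below 0.05. miR-154-3p is at 3.26 in CIMEF and 2.64 in DMEF but at -0.053 in ESC, whereas miR-667-3p and miR-433-3p lie below 0 in all 3 lines.

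The difference between lines was then tested itself, a comparison added after seeing the data and scaled with DESeq2's size factors in edgeR, which held the median of all miRNAs near 0. For ESC minus DMEF 4 members were lower and 1 higher, where 1.93% of 571 miRNAs were called lower and 5.95% higher. miR-376b-3p differed by -2.51 (SE 0.32, adjusted p = 2.26e-05), miR-154-3p by -2.45 (SE 0.27, adjusted p = 3.16e-06), miR-543-3p by -1.43 and miR-495-3p by -1.05, and miR-433-3p by 2.37 (SE 0.44, adjusted p = 1.80e-03). For ESC minus CIMEF 7 were lower and 1 higher, where 5.50% of 618 were called lower and 6.31% higher. miR-154-3p differed by -3.36 (SE 0.30, adjusted p = 6.66e-08), miR-376b-3p by -2.85, miR-543-3p by -2.55, miR-411-3p by -1.57, miR-495-3p by -1.55, miR-665-3p by -1.37 and miR-409-3p by -1.10, and miR-433-3p by 2.59 (adjusted p = 5.69e-04). Without CIMEF course 1, 1 member passed in the latter comparison, as lower (2.47% of all called lower, 6.58% higher). For CIMEF minus DMEF no member passed in edgeR, where 3.18% of 503 miRNAs were called higher and 4.77% lower, with 3 members at an unadjusted p below 0.05 and a lowest adjusted p of 0.0825. Both ESC comparisons share the ESC libraries. The balance of these calls depended on the scaling. With TMM the median of all miRNAs itself was -1.31 for ESC minus DMEF, where 38 members were called lower and 0 higher (40.1% of all lower, 1.93% higher) and miR-433-3p did not pass (adjusted p = 0.104). For ESC minus CIMEF it was 0.97, and the split of members turned to 7 higher and 3 lower (22.5% of all higher, 1.62% lower). The 3 that were lower with TMM were miR-154-3p (-2.38), miR-376b-3p (-1.89) and miR-543-3p (-1.66), and miR-433-3p was again higher (3.19).

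The other miRNAs of the locus were read in the same way, and their difference from the members was not tested. Of those tested in CIMEF 11 of 37 were higher in labelled RNA and 5 lower (median log2 0.45), in DMEF 13 of 29 higher and 7 lower (0.82) and in ESC 12 of 51 higher and 7 lower (0.01). Among members, the 15 from 5p arms had a median of -0.77, -0.24 and -0.33 in CIMEF, DMEF and ESC, and those from 3p arms -0.85, -0.62 and -0.97. The number of uridines, where label can enter, correlated with the log2 value over members with r = 0.18, 0.30 and 0.33, and over all miRNAs with r = 0.31, 0.40 and 0.30, given as a description across miRNAs that share libraries.

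Arm use differed between lines in the same hairpins. In Mir154 the 5p arm made up 73.9% (95% exact binomial interval 73.3 to 74.5) of both arms' input counts in CIMEF course 1, 75.2% in course 2, 75.2% in the knockout, 64.8% and 64.5% in DMEF, and 20.5% and 19.1% in ESC. The major arm was thus 5p in all 5 fibroblast courses and 3p in both ESC courses. In EU libraries the 5p share was 50.4% and 31.5% in CIMEF, 38.4% in the knockout, 39.1% and 40.9% in DMEF and 27.0% and 24.5% in ESC, so that labelled RNA of the fibroblasts held more of the 3p arm than their standing RNA did. Mir411 went from 77.6% and 78.7% 5p in CIMEF over 65.8% and 59.5% in DMEF to 48.4% and 42.7% in ESC, and Mir379 from 88.3% and 86.2% over 83.3% and 82.2% to 69.7% and 66.8%. The knockout, contact-inhibited too, did not lie with the CIMEF courses in these hairpins, at 66.5% for Mir411 and 80.1% for Mir379. In the other of the 6 most abundant hairpins with both arms listed the change was smaller or without that order: Mir136 ran from 74.6% to 90.9% 5p, Mir434 from 20.3% to 24.1% and Mir369 from 7.28% to 20.8%. No test was made of these shares. Close pairs among these arms are miR-379-3p and miR-411-3p, and miR-154-3p and miR-369-3p.

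**Figure D5:**
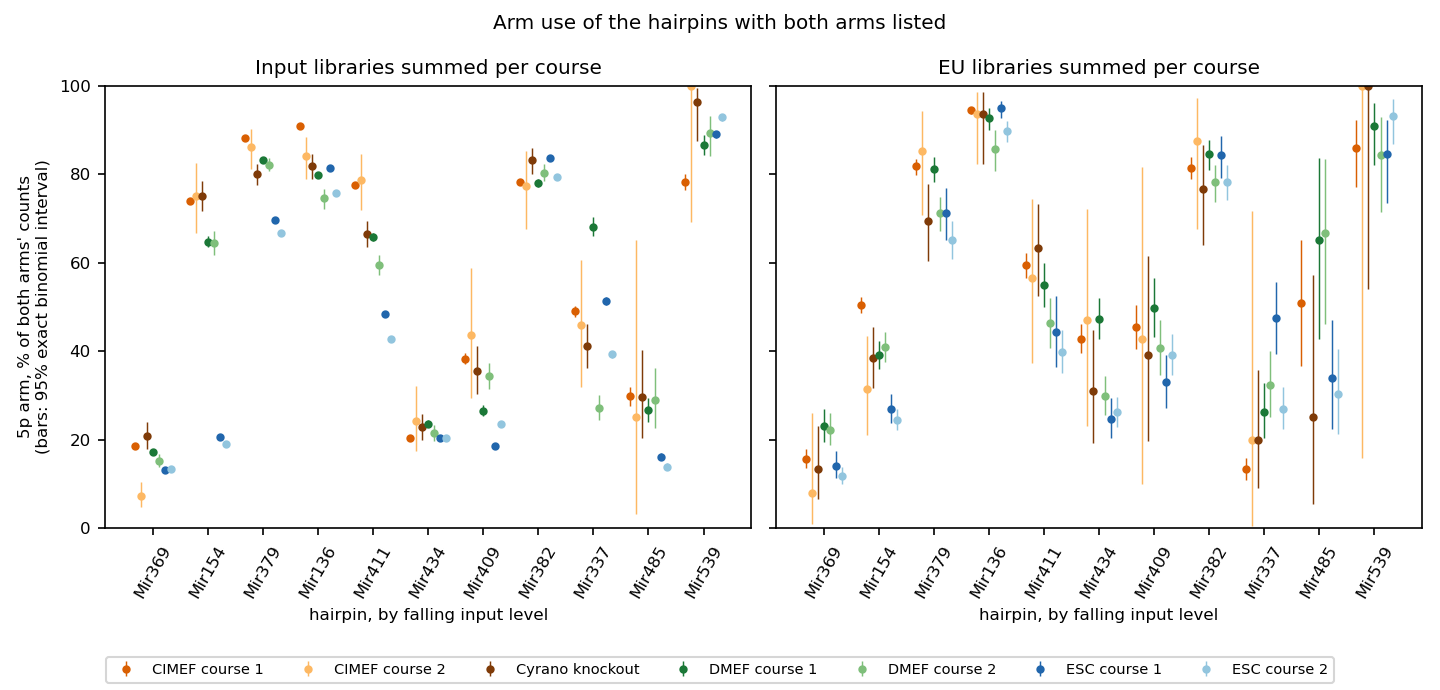
Share of the 5p arm in the counts of both arms, in percent, for the 11 hairpins with both arms listed, in input libraries (left) and EU libraries (right) summed per course, with 1 colour per course and bars for the 95% exact binomial interval. For Mir154 the input share of 5p is 64.5% to 75.2% in the 5 fibroblast courses and 19.1% and 20.5% in ESC.

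Half-lives were fitted per course to the rise of EU counts per count of the synthetic sequencing standards. Course 2 of each line and the knockout had no 0 h library, and the 0 h value of course 1 (of CIMEF for the knockout) was taken off there. In dividing cells the half-lives include dilution by growth. Levels per standard are not comparable between courses, so each member is read against all miRNAs of its own course. In DMEF the members' median was 2.03 h in course 1 and 0.871 h in course 2, against 3.63 h and 1.57 h over all miRNAs, with 30 of 35 and 26 of 34 members below that median. In the knockout it was 2.02 h against 4.51 h, with 11 of 12 below. In CIMEF course 1 it was 14.1 h against 17.8 h (24 of 40 below), and in ESC 14.7 h against 13.7 h in course 1 and 2.83 h against 3.30 h in course 2 (28 of 44 below). In ESC course 1, 11 more members stood at the upper limit of the fit, 240 h. Scaling to 3 other spiked RNAs, added after seeing the data, gave longer values, with medians of 6.35 h and 4.34 h in DMEF against 12.4 h and 9.27 h over all miRNAs, and 46.9 h in CIMEF course 1 against 48 h, 7.79 h in the knockout against 18.0 h, and 7.55 h and 7.29 h in ESC against 8.23 h and 8.97 h. In ESC course 1 the members' median thus lay above that of all miRNAs with the sequencing standards and the 0 h value taken off. It lay below with no 0 h value taken off, and with the other spiked RNAs.

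Of the 33 members fitted inside the limits in both DMEF courses, miR-154-3p had the shortest mean half-life, 0.376 h. miR-369-5p followed at 0.416 h and miR-379-3p at 0.493 h. The longest were those of miR-127-3p at 4.66 h, miR-431-5p at 3.56 h and miR-337-3p at 3.09 h. miR-409-5p, at the lower limit of 0.25 h in DMEF course 1 and at 0.879 h in course 2, is not in that ranking. The shortest values named lay below the first labelling time of 1 h. The fit range of each reached 0.25 h in at least 1 course, so their order is not resolved. In CIMEF miR-154-3p was the one member that could be fitted in both courses, at 1.87 h (fit range 1.5 to 2.28) and 0.444 h (0.25 to 0.842, the lower end being the limit of the fit). In ESC, miR-540-3p (2.57 h), miR-487b-3p (2.88 h) and miR-370-3p (3.66 h) were shortest and miR-300-3p (15.8 h), miR-543-3p (11.8 h) and miR-127-3p (10.6 h) longest among the 28 members fitted inside the limits in both courses. The longest 3 had 50.1, 28.4 and 20.8 h in course 1 but 4.99, 4.91 and 5.35 h in course 2, in that order. In course 1 the fit range reached the limit of 240 h for miR-300-3p and miR-543-3p, so the order of the longest is not resolved. The 11 members at the upper limit in course 1 are not in that ranking, among them miR-431-5p and miR-337-3p, which had 6.47 h and 6.25 h in course 2. miR-154-3p reached 12.7 h and 2.11 h in the ESC courses.

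No half-life difference between lines passed for a member. For ESC minus DMEF limma on log2 half-lives tested 22 members and called 0, with 0% of 96 miRNAs called in either direction, and for CIMEF minus DMEF it tested 1 member and called 0, where 79.1% of 187 miRNAs were called higher and 0% lower. Without CIMEF course 2, 24 of 33 members were called higher, where 53.3% of 227 miRNAs were, and without ESC course 2, 17 of 22, where 46.9% of 96 were. With the other spiked RNAs, 6 of 28 members were called higher for ESC minus DMEF (8.26% of all called higher, 9.09% lower) and 1 of 1 for CIMEF minus DMEF (68.3% of all called higher).

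The miRNAs outside the list whose input level ran most like that of the summed members all came from the locus. By Pearson's r of log2(CPM + 1) over 47 input libraries, among 711 miRNAs with at least 50 counts, the 10 closest ran from 0.983 to 0.993. They were miR-299a-5p, miR-380-3p, miR-299a-3p, miR-496a-3p.2, miR-666-3p, miR-300-5p, miR-127-5p, miR-1193-3p, miR-411-5p.2 and miR-673-5p.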

How the data were processed

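All tables hold raw read counts as the authors deposited them, 1 count per mature miRNA, standard or gene, with no normalization. Per the submitters' processing notes, cutadapt was used for all samples, and STAR 2.4 and HTSeq 0.9.1 with mm10/GRCm38 are named for all but the knockout and ESC course 2. Whether the random adapter bases served to remove duplicate reads is not given in the sources used here. All 100 columns of 15 tables were used. For 5 EU libraries of DMEF course 2 the labels list 2 sequencing runs, and the column may hold either or both. The members and lists were chosen with earlier results of these data known.

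Differences were tested on all miRNAs with edgeR 4.0.16 (TMM, its expression filter, quasi-likelihood test, Benjamini-Hochberg adjustment, threshold 0.05) in R 4.3.3, with DESeq2 1.42.0 as an alternative. A standard error (SE) is the log2 difference divided by the square root of its F value. For levels between lines, input counts were summed per course and all 7 courses entered 1 fit. For courses of a line and the knockout, single libraries were fitted with time as a factor. For labelled against standing RNA, EU and input libraries were fitted with their pair as a factor, and the 0 h value was not taken off. The difference of that measure between lines was added after seeing the data and used DESeq2's size factors in edgeR, because TMM moved the median log2 of all miRNAs to -1.31 (ESC minus DMEF) and 0.97 (ESC minus CIMEF).

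Half-lives came from y = A(1 - exp(-kt)), fitted on the log scale to EU counts per count of the sequencing standards (dme-miR-14 and xtr-miR-427), less a 0 h value. The fit took miRNAs with at least 50 counts and 5 times, over a grid of 400 values between 0.25 h and 10-fold the longest labelling. The 0 h value came from course 1 of the line, and for the knockout from CIMEF course 1. No other course had a 0 h library. Levels per standard are not comparable between courses, so in those courses it may not stand for their own unlabelled counts. With the other spiked RNAs it was taken off in course 1 only. Ranges hold fits within 1 unit of the lowest weighted sum of squares. Values at either end were left out, and limma 3.58.1 compared log2 half-lives. The other spiked RNAs are 3 features named spike_22, spike_24 and spike_26, whose role the labels do not state.

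Named members were the 12 most abundant, up to 6 per direction and comparison with the lowest p, the extremes of half-life, both arms of the 6 most abundant hairpins, and members past a test of slopes. Scripts were tested on simulated data. Other members appear as counts and ranges. Alternatives covered scaling, tool, filter, times, pairing and courses left out. Plots and sums used Python 3.11.15, pandas 2.3.3, numpy 2.4.6, scipy 1.17.1 and matplotlib 3.10.9.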

Additional observations from a re-analysis of the deposited data

Results flagged for a closer look

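These results stood out because a tested difference between lines passed in edgeR, with the adjustment over all miRNAs. The slope of the input level on time in 5EU was higher in CIMEF than in DMEF for miR-136-5p (difference 0.24), miR-376a-3p (0.20) and miR-539-3p (0.34), 3 members that fell in DMEF. It was higher in ESC than in CIMEF for miR-370-3p (0.19), which fell in CIMEF.

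The labelled share against the standing share was lower in ESC than in CIMEF for miR-154-3p (log2 -3.36), miR-376b-3p (-2.85), miR-543-3p (-2.55), miR-411-3p (-1.57), miR-495-3p (-1.55), miR-665-3p (-1.37) and miR-409-3p (-1.10), and higher for miR-433-3p (2.59). Against DMEF it was lower in ESC for miR-376b-3p (-2.51), miR-154-3p (-2.45), miR-543-3p (-1.43) and miR-495-3p (-1.05), and higher for miR-433-3p (2.37). These values use DESeq2's size factors, and with TMM miR-411-3p, miR-495-3p, miR-665-3p and miR-409-3p did not pass against CIMEF, nor miR-433-3p against DMEF. The ESC libraries are shared by both comparisons, and 5EU was given at 125 µM to ESC and 400 µM to fibroblasts, so the dose and the line cannot be told apart. No course group was of a size at which single samples were checked for standing apart.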

How the results depend on the processing

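The number of members called for levels between lines depended on the courses in the fit. For ESC minus DMEF it was 2, and 1 with DESeq2's size factors, 13 with DESeq2, 48 with only those 2 lines, 0 with the replicate block, and 0 to 48 with 1 course left out. For ESC minus CIMEF it was 2, and 15 with DESeq2, 0 with only those 2 lines and 0 to 48 with 1 course left out. For CIMEF minus DMEF it was 0, and 0 to 48 with 1 course left out. DESeq2 called 228 of 812 miRNAs higher for ESC minus DMEF and 270 for ESC minus CIMEF. Its 13 and 15 of 48 members thus lay near the share of all. The course numbers share only a number: the correlation of deviations between lines was 0.265 (CIMEF and DMEF), 0.113 (CIMEF and ESC) and 0.0765 (DMEF and ESC) over 665 miRNAs, with 2 pairs each.

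For slopes in CIMEF, 5 members were called, and 11 with DESeq2's size factors, 10 without 0 h, 0 with no replicate block and 2 to 5 with 1 course left out. Of all 687 miRNAs, 68 were called rising and 69 falling with DESeq2's size factors, and 65 and 58 without 0 h. Without CIMEF course 1 the slopes reversed for miR-485-3p (-0.0071), miR-337-3p (-0.038) and miR-376b-3p (-0.058), and without course 2 they were 0.12, 0.12 and 0.11. Few of all miRNAs passed in CIMEF with no replicate block either, 15 rising and 8 falling of 676. In DMEF 3 were called, and 1 without 0 h, 0 with no replicate block and 0 with either course left out. Of all miRNAs in DMEF, 18 of 687 were called rising and 12 falling without 0 h, and 0 of 676 with no replicate block. Without course 1 it was 3 and 1 of 683, and without course 2 13 and 3 of 700, so calls were lost for nearly all miRNAs. In ESC 0 were called, 1 with DESeq2's size factors. For slope differences, CIMEF minus DMEF went from 3 to 0 with no replicate block (1 of all 676 miRNAs called higher, 0 lower). ESC minus CIMEF went from 1 to 3 with DESeq2's size factors (19 of 687 higher, 29 lower) and 0 with no replicate block (6 of 676 higher, 3 lower).

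For labelled against standing RNA with no replicate block, the count went from 26 to 0 in CIMEF (108 of 503 miRNAs called higher, 127 lower). In DMEF the count went from 28 to 18 with no replicate block (129 of 440 called higher, 128 lower). With 1 course left out it was 3 to 24 in CIMEF, 17 in DMEF and 18 in ESC. The difference ESC minus DMEF went from 5 to 38 with TMM and was 4 to 7 with 1 course left out, and ESC minus CIMEF went from 8 (7 lower, 1 higher) to 10 with TMM, 3 lower and 7 higher, 0 with no replicate block, 5 with 1 and 2 h only and 1 to 8 with 1 course left out. For half-lives the counts of 0 became 1 (CIMEF minus DMEF) and 6 (ESC minus DMEF) with the other spiked RNAs, and 0 to 24 and 0 to 17 with 1 course left out.

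Per count of standard, the summed log2 difference was -14.01 in place of -6.84 for CIMEF course 2 minus course 1, -12.52 in place of -4.86 for the knockout minus CIMEF course 1 and -9.24 in place of -0.67 for DMEF. It reversed to 0.62 from -0.13 for ESC course 2 minus course 1, and to -0.84 from 3.00 for ESC minus DMEF. The standards themselves moved with the course, from 27.6 to 40.9 counts per 1e+06 miRNA counts in the input libraries of CIMEF course 1 to 4430 to 5426 in course 2, and from 65.2 to 78.1 to 26530 to 34976 in DMEF, so these values give no comparison of levels between courses. The total of members called between courses of a line, and for the knockout, stayed within 1.5 times its count with DESeq2's size factors, with DESeq2, with no low-count filter and with times up to 24 h. Lower calls in ESC went from 16 to 10 with no low-count filter. Depth limits CIMEF course 2 most, with 17 to 153 member counts in an EU library.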
